A study of Mus musculus with 7 samples.

Results

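Notch signaling genes were followed in the cardiac outflow tract (OFT), the vessel that carries blood out of the embryonic heart, at embryonic day 11.5. The genes were chosen by symbol and comprise the receptors *Notch1*, *Notch2* and *Notch3*, the ligands *Jag1*, *Jag2* and *Dll4*, the targets *Hey1*, *Hey2* and *Heyl*, and *Mib1*, whose product acts on the ligands. All 10 symbols were found among 14732 listed genes. RNA was sequenced from 3 control (WT) pools, replicates 3, 4 and 5, and 4 *Gata6*STOP/+ (mutant) pools, replicates 1, 3, 4 and 5. The mutant embryos have an early stop in one copy of *Gata6*, a zinc finger transcription factor gene. Each library pools several OFTs, so that differences between embryos cannot be seen. According to the methods, the allele was made by injection of guide RNA and Cas9 into C57BL/6 embryos, and the line goes back to a selected founder backcrossed to C57BL/6. The reagent list of the study names *Mib1* alleles, R530X/+ and V943F/V943F, as the background beside the *Gata6* reagents. Whether any of the sequenced pools carried such an allele is not given in the sources used here.

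Notch receptors are membrane proteins that are activated by ligands on a neighboring cell. The ubiquitin ligase encoded by *Mib1* marks the ligands for endocytosis in the sending cell, and the pull exerted on the receptor exposes it to cleavage. The released intracellular domain joins the DNA-binding protein RBPJ and turns on targets such as the Hey genes, which encode transcriptional repressors. In the developing heart, the pathway is known for its part in the endocardial-mesenchymal transition that forms the cushions of the future valves, in arterial endothelium and in vascular smooth muscle.

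The promoter of *Hey2* is shown because *Hey2* is the one of the 10 members whose pools did not overlap between the genotypes. Of all genes, 8.47% had no overlap. The RefSeq window of 300 bases, 250 before and 50 after the annotated gene start, lies at chr10:30842734-30843033 of GRCm38.p6 on the minus strand. It is written 5′ to 3′ along the gene, with capitals where the RBPJ recognition letters CGTGGGAA were found on either strand.
Hey2: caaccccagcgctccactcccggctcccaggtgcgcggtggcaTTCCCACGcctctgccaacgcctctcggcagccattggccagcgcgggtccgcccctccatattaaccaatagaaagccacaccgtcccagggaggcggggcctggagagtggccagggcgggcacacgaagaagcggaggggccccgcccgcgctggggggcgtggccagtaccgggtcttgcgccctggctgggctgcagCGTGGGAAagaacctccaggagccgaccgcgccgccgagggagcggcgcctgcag
The letters occurred once in each orientation, starting at −207 on the opposite strand and at −5 on the strand of the gene, counted from the annotated start. At least 1 match was found in 0.734% of the 32851 promoter entries, and 2 or more matches in 4 entries, *Hey2* included. Entries were matched for 7 of the 10 members, all except *Hey1*, *Heyl* and *Mib1*. The shorter core TGGGAA, which the longer motif contains and which 25.6% of all entries hold, was found in the *Hey2* entry and not in the other 6. GATA preceded by A or T and followed by A or G was found on neither strand of these 7 windows, where 29.8% of all entries hold it. The motifs were chosen after the promoter letters had been read. A match describes letters and not an occupied site, and a missing match says nothing about binding elsewhere.

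The control libraries held 17783655 to 29035529 reads on listed genes and the mutant libraries 24736761 to 34467710. *Gata6* itself was at 315, 257 and 286 CPM (read counts scaled to library size by TMM) in controls 3, 4 and 5, against 268, 203, 219 and 217 CPM in mutants 1, 3, 4 and 5. The mutant mean was 79.2% of the control mean (limma adjusted *P*-value=0.389, unadjusted 0.0058), and mutant pool 1 lay above control pool 4. The study itself reported a decrease of *Gata6* with edgeR, past its adjusted threshold, and a lower level by quantitative PCR. Its methods describe 3 pools per genotype, whereas 4 mutant pools, pool 1 included, were compared here. The edgeR result of the study and the limma result here may thus rest on different pools, which was not tested. Markers of the tissue were present. All 12 endothelial and endocardial markers, all 10 cardiomyocyte markers and all 8 smooth muscle and mural markers were listed, and 6 of 7 second heart field markers. Of 8 pharyngeal and foregut markers, 2 were listed.

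With limma on log2(CPM+0.5), none of the 10 members had an adjusted *P*-value under 0.05, and the same held for the table as a whole, where 0.0% of 14732 genes passed. Adjusted *P*-values of the members ran from 0.513 (*Hey2*) to 0.983 (*Notch3*). The reads recovered from the CPM gave 0.0% of all genes with the quasi-likelihood test of edgeR, 0.713% with its likelihood ratio test and 0.597% with DESeq2, and no member in any of these. An unadjusted limma *P*-value under 0.05 was obtained for 2 of the 10 members, *Hey1* and *Hey2*, compared with 8.06% of all genes. The log2 fold change was above 0 for 9 of the 10, with a median of 0.14, while it was above 0 for 49.8% of all genes, with a median of −0.00073. Groups did not overlap for 1 member, *Hey2*, compared with 8.47% of all genes. In whole OFTs, fewer cells of a type and less RNA per cell cannot be told apart.

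**Figure D1:**
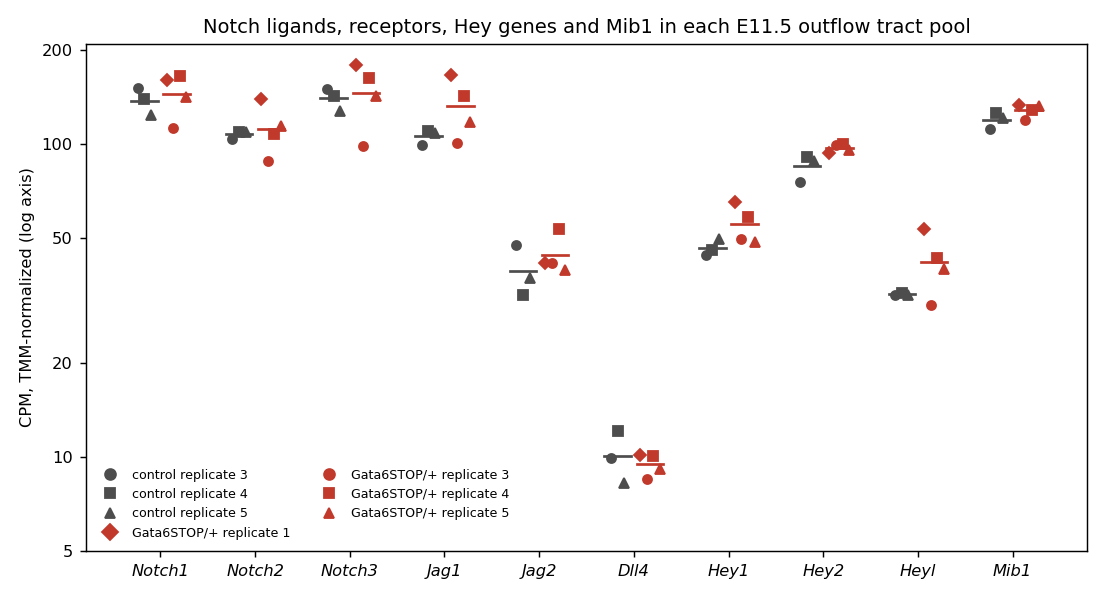
TMM-normalized CPM of the 10 members on a log axis, with 1 point per pool (grey, 3 control pools; red, 4 *Gata6*STOP/+ pools; the marker shape gives the replicate number) and a bar at the group mean. Only for *Hey2* do all red points, from 93.3 to 99.7 CPM, lie above all grey ones, from 75.5 to 90.5 CPM.

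The receptors were nearly level between the genotypes. Values are given from here on in the order of control pools 3, 4 and 5 and of mutant pools 1, 3, 4 and 5. *Notch1* (ENSMUSG00000026923, chromosome 2, 26457903 to 26516663, GRCm38) is the main receptor of endothelium and endocardium. Controls had 150.3, 138.6 and 123.5 CPM of *Notch1*, and mutants 160.2, 112.2, 164.7 and 140.9 CPM. The lowest and the highest value were both in mutant pools, which thus enclosed the controls. The log2 fold change was 0.06 (standard error 0.12, 95% interval −0.21 to 0.33, limma adjusted *P*-value=0.927). Exons of *Notch1* overlap those of 0610009E02Rik on the opposite strand, a gene that averaged 1.36 CPM in control and 0.898 CPM in mutant pools.

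*Notch2* (ENSMUSG00000027878, chromosome 3, 98013527 to 98150361) encodes a receptor found in cushion mesenchyme and smooth muscle precursors among other cells. Its pools had 103.3, 109.4 and 109.5 CPM in controls and 138.8, 88.0, 107.2 and 113.9 CPM in mutants. *Notch3* (ENSMUSG00000038146, chromosome 17, 32120820 to 32166852), the receptor typical of mural cells, had 149.8, 142.3 and 127.4 CPM in controls and 178.8, 98.1, 162.1 and 141.8 CPM in mutants. For both genes the mutant values ran from below all controls, in pool 3, to above all controls, in pool 1. The log2 fold change of *Notch2* was 0.04 (standard error 0.12, 95% interval −0.22 to 0.31, limma adjusted *P*-value=0.953). That of *Notch3* was 0.02 (standard error 0.16, 95% interval −0.34 to 0.39, limma adjusted *P*-value=0.983). In linear terms the interval of *Notch3* spans 0.789 to 1.31 times the control level, so that changes within these bounds could not be told from no change.

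The ligands also overlapped between the genotypes. *Jag1* (ENSMUSG00000027276, chromosome 2, 137081456 to 137116644) encodes a Serrate-type ligand expressed in endothelium, smooth muscle and cushion mesenchyme. Control values were 99.1, 110.3 and 108.6 CPM and mutant values 166.6, 100.5, 142.7 and 117.7 CPM. Mutant pools 1, 4 and 5 were above every control pool, and pool 3 lay within the controls. The mutant mean was 124% of the control mean, with a log2 fold change of 0.29 (standard error 0.14, 95% interval −0.02 to 0.60, limma adjusted *P*-value=0.649). It was 0.17 without mutant pool 1 and 0.41 without mutant pool 3.

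*Jag2* (ENSMUSG00000002799, chromosome 12, 112907819 to 112929776), the second Serrate-type ligand, gave 47.6, 32.8 and 37.4 CPM in controls and 41.5, 41.6, 53.4 and 39.5 CPM in mutants. The groups overlapped, since control pool 3 exceeded every mutant pool but pool 4. *Jag2* had a log2 fold change of 0.17 (standard error 0.13, 95% interval −0.12 to 0.46, limma adjusted *P*-value=0.789). *Dll4* (ENSMUSG00000027314, chromosome 2, 119325784 to 119335962), the Delta-type ligand of arterial endothelium, was the member with the fewest reads, from 147 per pool upward. Its values of 9.93, 12.04 and 8.23 CPM in controls enclosed those of the mutants, 10.10, 8.51, 10.05 and 9.13 CPM. *Dll4* was the one member with a log2 fold change below 0, at −0.07 (standard error 0.13, 95% interval −0.37 to 0.22, limma adjusted *P*-value=0.914).

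The Hey genes, the targets in this set, all had higher means in mutant pools, none past the threshold. *Hey2* (ENSMUSG00000019789, chromosome 10, 30832359 to 30842801) encodes a repressor expressed in arterial endothelium and in compact ventricular myocardium. Its promoter is the window printed above, with the RBPJ letters in both orientations. Whether these letters bear on the values was not tested. Pools had 75.5, 90.5 and 88.4 CPM in controls and 93.3, 99.4, 99.7 and 95.7 CPM in mutants. Mutant pools were closely grouped, with a standard deviation (s.d.) of 3.08 CPM, and all above the controls. The log2 fold change was 0.20 (standard error 0.07, 95% interval 0.04 to 0.35, limma adjusted *P*-value=0.513). By exact permutation of the pools (two-sided), *P* was 0.0571, the smallest value that 4 against 3 pools allow.

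*Hey1* (ENSMUSG00000040289, chromosome 3, 8663359 to 8667256) encodes a repressor of endocardium, endothelium and smooth muscle. Values of *Hey1* were 44.0, 45.8 and 49.8 CPM in controls and 65.4, 49.6, 58.6 and 48.7 CPM in mutants. Mutant pools 3 and 5 were just below control pool 5 and above the other controls. *Hey1* had a log2 fold change of 0.24 (standard error 0.10, 95% interval 0.02 to 0.47, limma adjusted *P*-value=0.581).

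*Heyl* (ENSMUSG00000032744, chromosome 4, 123233556 to 123249875), a Hey gene typical of vascular smooth muscle, had the closest control pools of all members, at 32.8, 33.5 and 32.9 CPM. The mutant pools had 53.6, 30.5, 43.2 and 39.8 CPM, so that 3 were above the controls and pool 3 was below them. Its log2 fold change of 0.31 had an interval of −0.02 to 0.63 (standard error 0.15, limma adjusted *P*-value=0.647), and was 0.18 without mutant pool 1 and 0.45 without mutant pool 3.

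*Mib1* (ENSMUSG00000024294) lies on chromosome 18 from 10725548 to 10818704, and its end is 233 kb from the start of *Gata6*. Control pools had 111.5, 125.6 and 121.1 CPM of *Mib1* and mutant pools 133.6, 119.1, 128.4 and 132.1 CPM. Mutant pool 3 lay within the controls and the other 3 above them. The mutant mean was 107% of the control mean, with a log2 fold change of 0.10 (standard error 0.06, 95% interval −0.04 to 0.25, limma adjusted *P*-value=0.736). The interval corresponds to 0.974 to 1.19 times the control level. Because the reagent list names *Mib1* alleles and both genes are close on one chromosome, the surroundings were examined as well. Of 38 other listed genes within 5 Mb of *Mib1*, *Gata6* left out, 28 had a log2 fold change above 0 and 10 below, with a median of 0.06, while 49.8% of all genes were above 0. With limma, 0 of the 38 passed the adjusted threshold and 2 had an unadjusted *P*-value under 0.05, compared with 8.06% of all genes. All mutant pools were above all controls for 4 of the 38 and below for 1, compared with 4.31% and 4.16% of all genes.

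**Figure D2:**
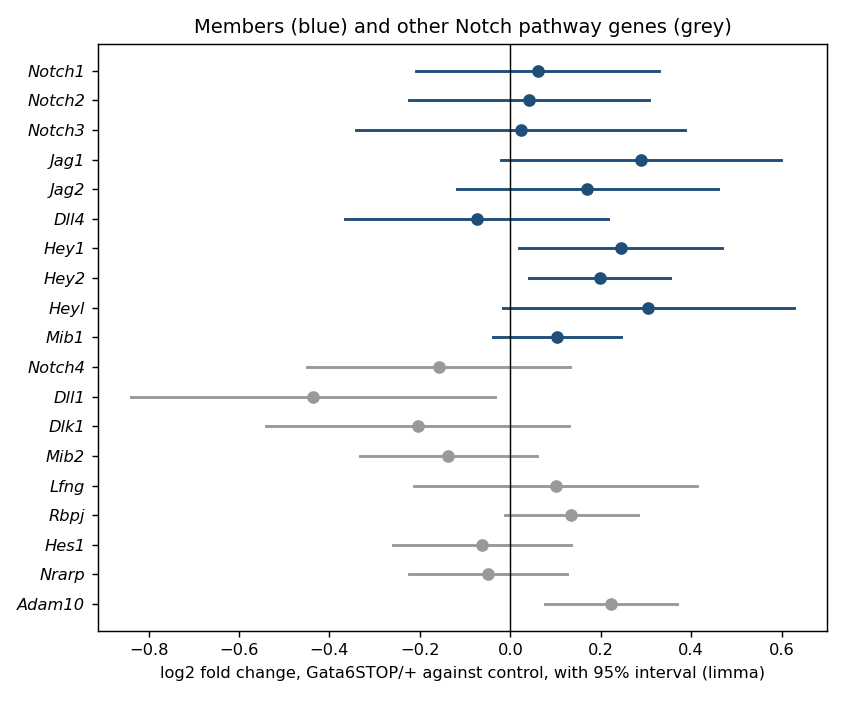
Log2 fold change of *Gata6*STOP/+ against control pools with its 95% interval from limma, for the 10 members (blue) and 9 other genes of the pathway (grey). Among the members, the intervals of *Hey1* and *Hey2* lie above 0, and no gene shown had an adjusted *P*-value under 0.05.

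Mutant pools differed among themselves in a way that several members shared. Mutant pool 1 was the highest of the mutants for 7 of the 10 members, compared with 29.3% of all genes, and pool 3 the lowest for 7, compared with 27.9%. Both held for 6 members, *Notch2*, *Notch3*, *Jag1*, *Dll4*, *Heyl* and *Mib1*, and for 14.4% of all genes. They also held for 19 of 45 further genes of the pathway. The order was noticed in the values and is given as a description. On the log2 scale, the s.d. of the mutant pools exceeded that of the controls for 6 members, compared with 50.3% of all genes. For *Heyl* the s.d. was 0.016 in controls and 0.33 in mutants, and for *Notch3* 0.12 and 0.38. *Hey2* was the opposite case, with 0.14 in controls and 0.046 in mutants.

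Some markers of cell types moved with these pools. The mural marker *Rgs5* was at 515, 254, 383 and 297 CPM in the mutants, the order seen for *Notch3* and *Heyl*, and so in order was the mural marker *Pdgfrb*, at 201, 107, 161 and 153 CPM. Of the whole list of 8 smooth muscle and mural markers, 3 had pool 1 highest and pool 3 lowest, as had 3 of 6 markers of cushion mesenchyme and 2 of 12 of endothelium and endocardium. Other smooth muscle markers of that list, *Acta2*, *Tagln*, *Cnn1* and *Myl9*, were instead lowest of the mutants in pool 1. *Acta2* was at 1557, 2025, 2068 and 1596 CPM and *Myl9* at 651, 894, 856 and 753 CPM in the mutants. The summed level of the smooth muscle and mural list, to which *Acta2* adds most, had another order in the mutants, at 4271, 4851, 5193 and 4260 CPM, and spanned 4115 to 4650 CPM in controls. Endothelial and endocardial markers summed to 1126, 975, 1192 and 1049 CPM in the mutants, the order seen for *Notch1*, and to 899 to 1202 CPM in controls. The cardiomyocyte sum was lowest in mutant pool 1, at 18229 CPM, while the other 6 pools were at 22300.2 to 25786 CPM. Neural crest and glial markers, 6 of 8 listed, were the one list whose sums did not overlap, with 70.3 to 83.0 CPM in mutants and 84.2 to 119 CPM in controls. The part of these cell types in the values of the members was not tested.

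**Figure D3:**
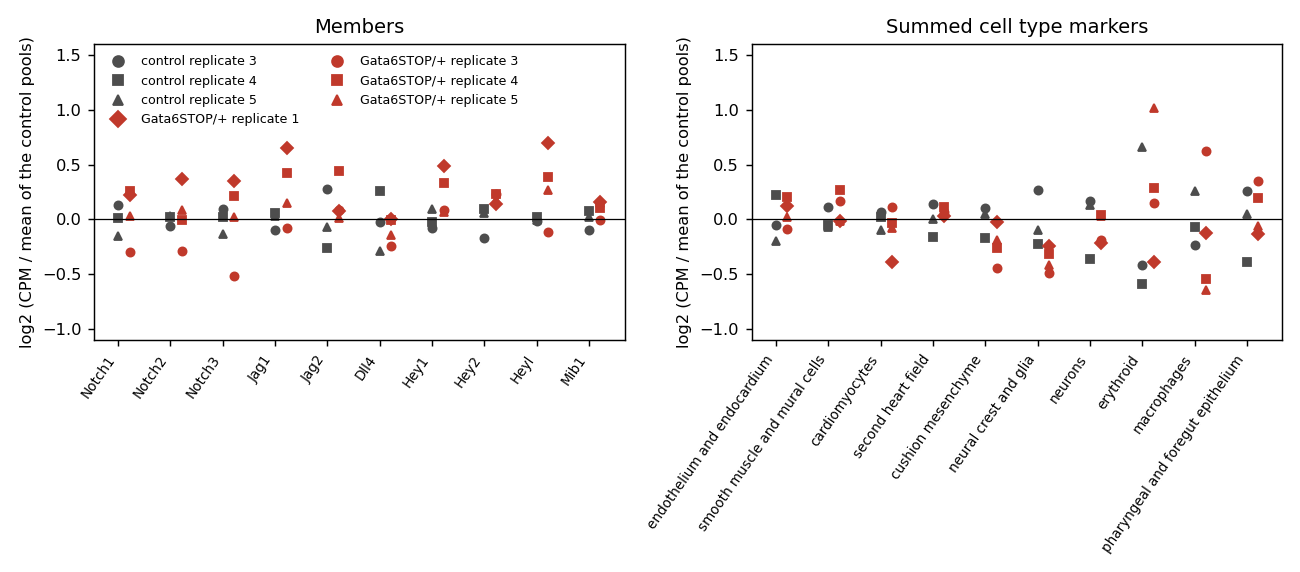
Left, each member, and right, the summed CPM of each list of cell type markers, as log2 of the ratio to the mean of the control pools (grey, control; red, *Gata6*STOP/+; marker shapes give the replicate number). Replicate 1 is the highest red point and replicate 3 the lowest for *Notch2*, *Notch3*, *Jag1*, *Dll4*, *Heyl* and *Mib1*, whereas the cardiomyocyte sum is lowest in replicate 1.

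Levels were compared between members as CPM per kilobase of annotated exons. In control pools the order was *Hey2* (18.5±1.77, s.d., *n*=3), *Jag1* (18.2±1.04), *Notch3* (17.3±1.41), *Hey1* (14.3±0.905), *Mib1* (10.9±0.660), *Notch2* (9.96±0.333), *Notch1* (9.66±0.946), *Heyl* (6.46±0.072), *Jag2* (5.63±1.08) and *Dll4* (2.61±0.496). Control pools of neighbors in this order overlapped for *Hey2* and *Jag1*, *Jag1* and *Notch3*, *Notch2* and *Notch1*, and *Heyl* and *Jag2*, and did not for the other 5 pairs. Among all genes placed on the annotation, *Hey2* stood at percentile 80.9 and *Dll4* at percentile 30.7. When the longest annotated transcript was taken as length, *Hey2* was at 33.3 and *Notch1* at 14.5 CPM per kilobase. *Hey1*, at 19.2, then stood second, above *Jag1* at 18.9 and *Notch3* at 17.4. *Notch1* moved above *Mib1* and *Notch2*, and *Jag2* above *Heyl*, while *Hey2* was still first and *Dll4* last.

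**Figure D4:**
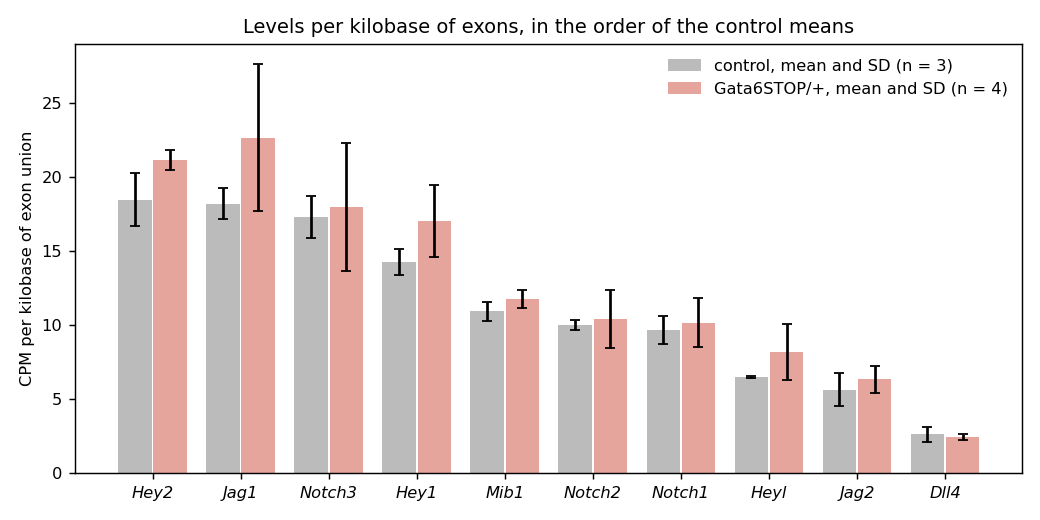
CPM per kilobase of exon union of each member, as mean and s.d. of 3 control pools (grey) and 4 *Gata6*STOP/+ pools (red), ordered by the control mean. On this length, *Hey2*, *Jag1* and *Notch3* lead in control pools, at 18.5, 18.2 and 17.3, and *Dll4* is lowest, at 2.61.

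Within each class, the members' shares of the summed CPM per kilobase are given as descriptions, without a test. *Notch3* made up 46.8%±1.19 (s.d., *n*=3) of the 3 receptors in control and 46.3%±2.35 (s.d., *n*=4) in mutant pools. *Notch1* made up 26.1% and 26.6%, and *Notch2* 27.1% in both. *Jag1* made up 68.8%±3.84 of the 3 ligands in control and 71.7%±3.83 in mutant pools, and *Dll4* 9.87%±1.75 and 7.91%±0.761. *Hey2* was the largest part of the Hey genes in 7 of 7 pools, at 45.2% to 48.9% in controls and 40.0% to 50.6% in mutants. The lowest share of *Hey2* was in mutant pool 1, where *Hey1* made up 39.4%.

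Of 49 further genes of the pathway, 45 were listed. With limma, 0 of them had an adjusted *P*-value under 0.05. The log2 fold change was above 0 for 23 and below 0 for 22, with a median of 0.009. All mutant pools were above all controls for 2 of the 45, *Adam10* and *Rbpj*, and below for 0. The shares over all genes were 4.31% and 4.16%. An unadjusted *P*-value under 0.05 was found for 1 gene higher in mutants and 2 lower, compared with 4.17% and 3.88% of all genes. The higher one was *Adam10*, which encodes the protease that makes the ligand-induced cut in the receptor. *Adam10* had 234.7, 259.4 and 247.5 CPM in controls and 306.2, 266.4, 283.9 and 298.4 CPM in mutants, without overlap. Its log2 fold change was 0.22 (standard error 0.07, 95% interval 0.08 to 0.37, limma adjusted *P*-value=0.398). Of the 9 genes for receptor cleavage, which include γ-secretase subunits, 5 were above and 4 below 0.

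The lower genes were *Dll1*, a Delta-type ligand, and *Psen2*, a catalytic subunit of γ-secretase that was named after its values were seen. *Dll1* had 7.38, 13.3 and 8.23 CPM in controls and 7.12, 6.74, 5.74 and 7.59 CPM in mutants, where pool 5 exceeded control pool 3. Its log2 fold change was −0.44 (limma adjusted *P*-value=0.581), and −0.19 without control pool 4. *Psen2* had a log2 fold change of −0.26 (limma adjusted *P*-value=0.525). *Rbpj*, the DNA-binding partner of the receptors, was at 92.3, 91.5 and 91.6 CPM in controls and at 109.4, 93.8, 95.4 and 105.7 CPM in mutants. All mutant pools of *Rbpj* were above the controls, with a log2 fold change of 0.13 (limma adjusted *P*-value=0.653).

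Of the 4 genes classed as targets outside the Hey genes, 1 had a log2 fold change above 0, whereas the 3 Hey genes were all above 0. The 4 were *Hes1*, *Hes6*, *Hes7* and *Nrarp*, and the one above 0 was *Hes7*, which averaged only 2.15 CPM in controls. *Hes6* and *Hes7* were named after their values were seen. The genes were classed by hand, and whether Notch induces each of them in this tissue was not tested. *Hes1*, a repressor gene induced by Notch in many tissues, was at 45.8, 34.7 and 39.6 CPM in controls and at 39.5, 36.8, 39.0 and 37.1 CPM in mutants, with a log2 fold change of −0.06 (limma adjusted *P*-value=0.892). *Nrarp*, which encodes a feedback inhibitor of the receptor complex, had a log2 fold change of −0.05 (limma adjusted *P*-value=0.903). The difference between these targets and the Hey genes was not tested.

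The log2 fold changes of *Notch4*, the fourth receptor, and *Mib2*, which encodes a relative of the *Mib1* product, were −0.16 (limma adjusted *P*-value=0.80) and −0.14 (limma adjusted *P*-value=0.743). *Dlk1*, a Delta-like gene whose product lacks the receptor-activating domain, was at 330.2 CPM in control pool 3 and at 193 to 229 CPM in the other 6 pools, with a log2 fold change of −0.20 (limma adjusted *P*-value=0.783). *Lfng*, which encodes a glycosyltransferase that tunes the response of the receptor to its ligands, had a log2 fold change of 0.10 (limma adjusted *P*-value=0.892).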

How the data were processed

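Single-end, strand-specific libraries were sequenced. Per the methods, adapters were removed with Cutadapt (v1.18) and gene counts estimated with RSEM (v1.2.3) on Ensembl models of GRCm38. The authors deposited CPM scaled by TMM factors (edgeR v3.32.1) for genes that reached 1 CPM in 3 or more samples. Whether counting used the strand is not given in the sources used here. In every pool, 100% of values were whole multiples of 1 step (within 0.02 reads), from which reads were recovered for count tests. The smallest listed value was 1 read in 4 pools and 2, 4 or 6 reads in the other 3, where the step was taken as that fraction of it.

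Genes were tested over all 7 pools with limma 3.58.1 (trend, two-sided, R 4.3.3) on log2(CPM+0.5), a scale that understates changes of genes with few reads, with Benjamini–Hochberg adjustment over 14732 genes. The labels do not say that pools came from separate litters, so that *P*-values measure the spread between these pools. The fits were also run on simulated reads, in which the changed genes had larger log2 fold changes than any member. That run does not show whether changes of the members' size would be found. Exon lengths and positions are from GENCODE M21 (GRCm38) and promoters from RefSeq (GRCm38.p6). Alternatives were constants of 0.1 and 2, genes of at least 5 CPM on average against the table as deposited, median-of-ratios scaling, a replicate block, edgeR 4.0.16 and DESeq2 1.42.0 on recovered reads, and each pool left out.

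Members and lists were chosen with earlier results of these data known. Named were all members, *Gata6* and, of the pathway list, *Notch4*, *Dll1*, *Dlk1*, *Rbpj*, *Lfng*, *Hes1*, *Nrarp*, *Mib2* and genes without overlap between groups. *Dll3*, *Dlk2*, *Dner* and *Hes5* of this list were not among the listed genes and so have no values here. Marker lists of 10 cell types were written by hand and summed. Exact permutation tests used scipy 1.17.1.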

Additional observations from a re-analysis of the deposited data

Results flagged for a closer look

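*Jag2* had a pool far from the others of its group. Mutant pool 4 was at 53.4 CPM and the other mutant pools at 39.5 to 41.6 CPM, so that the gap to the nearest pool was 0.852 of the whole range, above Dixon's 95% critical value for 4 samples. Of 29 groups examined in this way, 1 passed that value, and chance passes about 1 in 20. The value for 4 samples does not apply to the groups of 3 control pools, whose gaps are not judged here. Among these, *Notch2* was at 103.3 CPM in control pool 3 and at 109.4 and 109.5 CPM in control pools 4 and 5. Without mutant pool 4, the log2 fold change of *Jag2* was 0.07.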

How the results depend on the processing

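None of the 10 members had an adjusted *P*-value under 0.05 in any of 160 alternative values, 149 of which kept the sign of the log2 fold change. Those of *Jag1*, *Jag2*, *Hey1*, *Hey2*, *Heyl* and *Mib1* stayed above 0 in every alternative, with adjusted *P*-values from 0.221 to 1.0. With single pools left out they spanned 0.17 to 0.41, 0.051 to 0.32, 0.16 to 0.30, 0.12 to 0.25, 0.18 to 0.45 and 0.055 to 0.14 in that order. *Lfng* spanned 0.023 (without mutant 3) to 0.22 (without control 5) and *Notch4* −0.24 (without mutant 4) to −0.043 (without mutant 3). In the same settings, log2 fold changes ran from −0.014 to 0.18 for *Notch1* (below 0 without control 5 or mutant 4), −0.068 to 0.15 for *Notch2* (without mutant 1) and −0.089 to 0.20 for *Notch3* (without control 5, mutant 1 or mutant 4). They ran from −0.20 to 0.057 for *Dll4* (above 0 without control 4), −0.35 to 0.034 for *Dlk1* and −0.16 to 0.037 for *Hes1* (both above 0 without control 3). Over all genes, limma called 0 in the main fit used here and 0 to 13 with 1 pool left out. These were 13 without control 4, 2 without mutant 3 and 1 without mutant 1. The constant of 0.1 gave 1, the edgeR likelihood ratio test 105 and DESeq2 88, and the cause was not tested.

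Pools with the same replicate number did not deviate together (correlations −0.046, −0.27 and −0.017 for numbers 3, 4 and 5). So few correlations cannot settle whether the numbers pair the pools. A replicate block, in which mutant pool 1 has no partner and adds nothing to the contrast, gave 14 called genes with limma and 118 with the likelihood ratio test. *Notch2* was then at −0.068 and −0.067 and *Notch3* at −0.089 and −0.087, and no member was called.

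With the longest transcript as length, control levels were 14.5 CPM per kilobase for *Notch1*, 7.69 for *Jag2*, 19.2 for *Hey1*, 33.3 for *Hey2*, 7.28 for *Heyl* and 11.7 for *Mib1*. Control shares of the class were then 34.3%, 24.3% and 41.3% for *Notch1*, *Notch2* and *Notch3*, 64.6% for *Jag1*, 26.2% for *Jag2*, and 32.2%, 55.6% and 12.2% for *Hey1*, *Hey2* and *Heyl*. The members had 147 to 5098 reads per pool, and with 3 and 4 pools the widest 95% interval, that of *Notch3*, spanned −0.34 to 0.39 on the log2 scale.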

Other observations

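Erythroid markers, outside the comparisons above, had log2 fold changes above 0 for 7 of 7 genes, with a median of 0.44 and no adjusted limma *P*-value under 0.05. Their sums overlapped, at 1839 to 4386 CPM in controls and 2121 to 5610 CPM in mutants, with the highest sum of each group in replicate 5. Macrophage markers were highest in mutant pool 3, at 79.2 CPM, compared with 32.9 to 61.5 CPM in the other 6 pools. The 6 markers of cushion mesenchyme all had log2 fold changes below 0, with a median of −0.16, and 0 of them passed the adjusted threshold in limma while 2, both lower in mutants, had an unadjusted *P*-value under 0.05, compared with 3.88% of all genes.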
